A study of Danio rerio with 6 samples.

Results

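RNA of whole zebrafish embryos at 24 hours post fertilisation (hpf) was set beside RNA of whole embryos at 18 hpf. The comparison was chosen by sample title and used the 2 of the 6 arrays whose titles name total RNA, 1 array per stage. Because there was 1 array per stage, the differences below have no replicate check and no test, and they compare these 2 RNA samples. Both samples came from untreated embryos grown at 28 °C, and the labels for whole embryos name no strain and no number of embryos. The extraction text, which is the same on every array, describes sorting of GFP-positive cells from Tg(Fli1:EGFP) embryos, and the source field reads whole larvae throughout, so that the whole-embryo assignment rests on title, sample description and series design. Both RNAs went through 2 rounds of amplification before Cy3 labelling. The other 4 arrays held sorted reporter cells, by title Fli1 cells at 18, 24 and 28 hpf and Flk cells at 18 hpf. All 4 entered the normalization and the counts of arrays above background. Those of Tg(Fli1:EGFP) at 24 and 18 hpf were also used for 1 comparison near the end.

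Between these stages the zebrafish embryo leaves segmentation and enters the pharyngula period. Segmentation is the time at which somites form from the tailbud, and the later period is the one in which the heart beats, red cells circulate, the lens separates and pigment appears. Proliferating progenitors make many ribosomes in the nucleolus, whereas differentiated cells devote much of their RNA to a few abundant products such as contractile proteins, globins, crystallins and keratins. In RNA of whole embryos, more cells of a type and more RNA per cell cannot be told apart.

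Spots held 14067 zebrafish probes and 173 Arabidopsis control spots. A probe counted as above background where it was brighter than 95% of these control spots on its own array, which set the limit at a background-subtracted intensity of 308.5 at 24 hpf and 370 at 18 hpf. That left 39.4% of 13999 unflagged probes above background at 24 hpf and 37.5% at 18 hpf, and 26 probes were saturated at 24 hpf and 50 at 18 hpf. Each gene was represented by 1 probe, the one with the highest mean signal on both arrays, so that 4933 genes and unnamed probes were analysed, 2755 of them named. Before normalization the brightest 1% of probes began at an intensity of 20536 at 24 hpf and 26836 at 18 hpf. Signals below are normalized log2 intensities of 1 probe, and they are compared between arrays and never between genes.

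The tissues represented in the RNA were looked up with 40 markers of the tissues an embryo of these stages holds. Of these, 26 were above background on 1 array or both, 5 were below background on both (among them fli1, sox10 and foxd3) and 9 were not found among the named probes. Markers of muscle (myod1, log2 signal 8.90 at 24 hpf and 8.59 at 18 hpf), neurons (elavl3, 9.79 at 24 hpf and 10.02 at 18 hpf), blood (gata1a, 8.12 at 24 hpf and 8.14 at 18 hpf), vessels (kdrl, 8.08 at 24 hpf and 8.13 at 18 hpf), neural crest (crestin, 8.88 at 24 hpf and 9.33 at 18 hpf) and floor plate (shha, 8.13 at 24 hpf and 8.30 at 18 hpf) were above background on both arrays, and the surface keratin krt5 was saturated on both. In all, 25 markers were above background at 24 hpf and 19 at 18 hpf. Some passed narrowly: kdrl had intensities of 314.5 at 24 hpf and 379 at 18 hpf, against limits of 308.5 and 370. Only 1 of the 4 kdrl probes was above background. The gata1a intensities were 326 at 24 hpf and 382 at 18 hpf, and shha had 330 at 24 hpf. The probes for elavl3, gata1a, kdrl, crestin and krt5 were above background on all 6 arrays, the sorted ones included, so these markers do not set whole embryos apart from sorted cells. The notochord marker tbxta and the early neural crest markers foxd3 and sox10 gave no signal above background on either array. Other markers fixed for these tissues, shha for notochord and crestin for neural crest, were above background on both, as given above.

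A gene was counted as different where the 2 arrays differed by 2-fold or more (1 on the log2 scale) and the brighter one was above background. By this criterion 341 genes and unnamed probes were higher at 24 hpf, 6.91% of those analysed, and 246 were lower, 4.99%. Named genes made up 218 of the higher and 138 of the lower ones. Of the 341 higher ones, 184 were below background at 18 hpf, and of the 246 lower ones, 91 were below background at 24 hpf. For such genes the fold is a bound, "at least N-fold", taken against the lowest normalized signal above background on the dim array (8.06 at 24 hpf, 8.11 at 18 hpf), and 227 higher and 182 lower genes had a measured fold or a bound of 2 or more. The median difference of all 4933 was -0.09, and 337 of the higher and 244 of the lower ones were past 2-fold also under 75th percentile scaling and in the authors' scaled values.

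**Figure D1:**
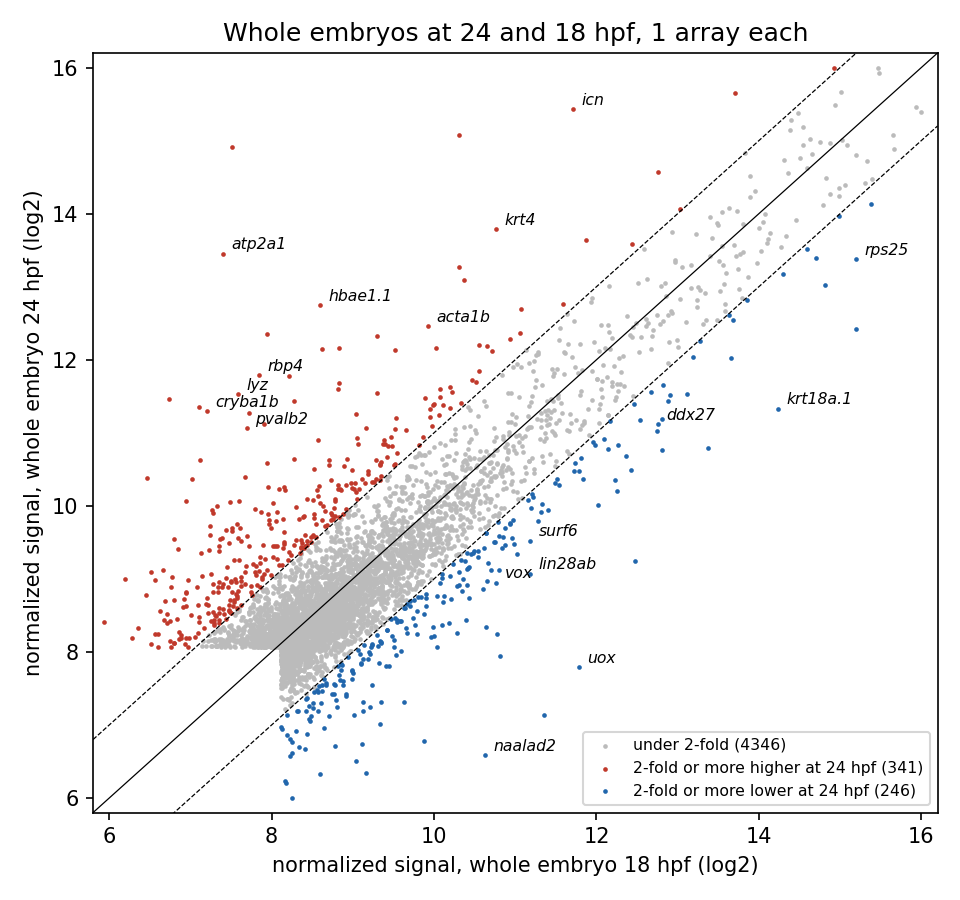
Normalized log2 signal of 4933 genes and unnamed probes in whole embryos at 24 hpf (vertical axis) and at 18 hpf (horizontal axis), 1 array each. Red points were 2-fold or more higher at 24 hpf (341), blue points 2-fold or more lower (246) and grey points under 2-fold. The solid line marks equal signal and the dashed lines 2-fold. atp2a1, hbae1.1, icn and krt4 lie far above the line, and krt18a.1, uox and naalad2 far below it.

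No array here repeats another, so the spread between replicates is unknown, and only the spread between the stages at control spots and between probes of a gene could be read from the arrays. The log2 difference between the stages had an SD of 0.36 over the 173 Arabidopsis spots, 3 of which were past 2-fold, the most distant at 1.45. Between different probes of the same gene the log2 difference had a pooled SD of 0.615 over the 720 genes with several probes above background. Among the named genes counted as higher, 68 had another probe above background. Of the other probes of a gene, only the brightest at 24 hpf was read. It had the same sign for 60 of these genes (88.2%), for 32 (47.1%) past 2-fold. Among the lower ones the corresponding numbers were 44 genes, 34 with the same sign (77.3%) and 8 past 2-fold (18.2%). Choosing that probe by its signal at 24 hpf favours positive differences, so the percentages of higher and lower genes cannot be compared.

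Of the gene lists examined, skeletal muscle held the most genes that were higher at 24 hpf. Of 51 muscle genes on the array, 39 were above background on 1 array or both, and 19 of them were higher at 24 hpf and 1 was lower (background 6.91% and 4.99%). The median difference was 0.99 over these 39 genes and 0.60 over 50 muscle genes whatever their signal, against -0.09 and -0.06 over all genes analysed and over all 10676 genes and unnamed probes whatever their signal. The 12 remaining muscle genes were below background on both arrays or flagged.

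The widest difference of a named gene was that of atp2a1 (NCBI GeneID 260440), which encodes the calcium pump of the fast-fibre sarcoplasmic reticulum. Its background-subtracted intensity was 24036 at 24 hpf and 190.5 at 18 hpf, and its normalized log2 signal was 13.45 at 24 hpf and 7.40, below background, at 18 hpf. This amounted to at least 40.6-fold higher. Of its 5 other probes 4 were also positive, with differences of 4.01, 2.58, 1.81 and 1.72, and 1 was at -0.35. The probe read was above background on 5 of the 6 arrays, all but that of whole embryos at 18 hpf. In Fli1 sorted cells at 18 hpf it stood at 9.35, brighter than in whole embryos of that stage.

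Genes of the thin filament, which carries the calcium switch of contraction, followed. The troponin C gene tnnc2.2 had a log2 signal of 11.77 at 24 hpf and 8.22 at 18 hpf, 11.7-fold higher and above background on both arrays. The slow and cardiac troponin C gene tnnc1b stood at 11.28 at 24 hpf against 7.72, below background, at 18 hpf, at least 8.97-fold higher. The skeletal alpha-actin gene acta1b was 5.78-fold higher, at 12.46 at 24 hpf and 9.93 at 18 hpf. Its 3 other probes differed by 1.43, 0.48 and -0.06, so that the size depended on the probe read. The fast troponin T gene tnnt3b was at least 3.12-fold higher, at 9.75 at 24 hpf and 7.96, below background, at 18 hpf.

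The muscle creatine kinase gene ckma had a log2 signal of 10.62 at 24 hpf and 7.12, below background, at 18 hpf, at least 5.71-fold higher. The parvalbumin gene pvalb2, a calcium buffer of fast fibres, had 11.06 at 24 hpf and 7.70, below background, at 18 hpf, at least 7.72-fold higher. Both were measured by 1 probe. The myosin light chain gene myl13, which was outside the muscle list, had 12.32 at 24 hpf and 9.30 at 18 hpf and was 8.15-fold higher.

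Other muscle genes differed less or were lower. The fast myosin light chain mylpfa had 10.58 at 24 hpf and 9.85 at 18 hpf, a 1.66-fold difference that is under the criterion, and the myogenic regulator myod1 differed 1.24-fold. The myosin-binding protein gene mybpc2b was the 1 muscle gene on the lower side, at 8.26 at 24 hpf and 10.28 at 18 hpf, 4.06-fold lower, while its other probe was 0.97 higher.

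Heart genes were mixed: of 17 on the array 11 were above background, with a median of 0.02. Of these 11, 2 were higher (18.2%, against 6.91% of all genes) and 1 was lower (9.09%, against 4.99%). The light chain gene cmlc1 had a log2 signal of 11.46 at 24 hpf and 6.74 at 18 hpf, below background, and was at least 10.17-fold higher, with 1.09 on its other probe. The regulatory light chain gene myl7 had 9.10 at 24 hpf and 7.67, below background, at 18 hpf, at least 1.98-fold higher by its bound, with 1.12 on its other probe. The cardiac troponin T gene tnnt2a differed 1.56-fold, at 9.11 at 24 hpf and 8.47 at 18 hpf. The cardiac progenitor factor nkx2.7 was lower, at 8.23 at 24 hpf and 9.30 at 18 hpf, a 2.1-fold difference.

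**Figure D2:**
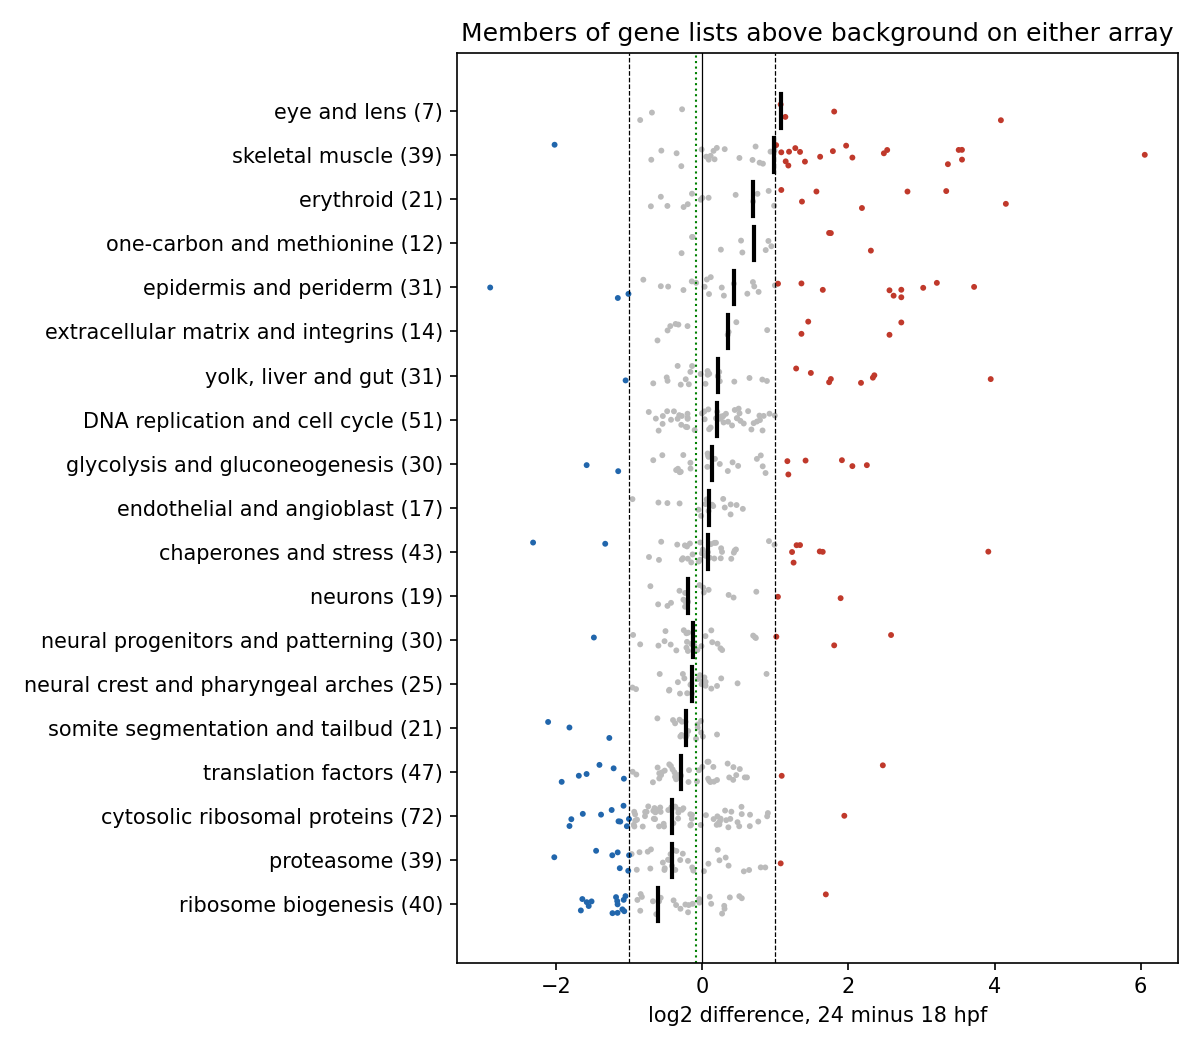
Log2 difference (24 minus 18 hpf) of each member above background on either array, for 19 gene lists with the number of members in brackets. Red and blue points are 2-fold or more higher and lower at 24 hpf, grey points are under 2-fold, black bars are list medians, dashed lines mark 2-fold and the green dotted line marks the median of all genes (-0.09). Skeletal muscle (median 0.99) lies to the right and ribosome biogenesis (median -0.61) to the left.

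Red blood cell genes were higher in part. Of 25 on the array 21 were above background, 7 were higher (33.3%, against 6.91% of all genes) and none was lower, and the median was 0.70 over these 21 and 0.28 over all 25. The embryonic alpha-globin gene hbae1.1 had a log2 signal of 12.75 at 24 hpf and 8.60 at 18 hpf, 17.8-fold higher, with both arrays above background. The embryonic alpha-globin hbae3 had 12.17 at 24 hpf and 8.83 at 18 hpf, 10.1-fold higher, and its other probe differed by 2.65. Near-identical globin genes may share a probe's signal, which was not tested, and the 3 other measured globins (hbaa1, hbba1 and hbba2) differed by less than 2-fold.

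Genes of heme synthesis and breakdown were also among the 7. The erythroid aminolevulinate synthase gene alas2, the entry step of heme synthesis in red cells, had 9.70 at 24 hpf and 7.52, below background, at 18 hpf, at least 3.01-fold higher. The uroporphyrinogen decarboxylase gene urod, a later step, was 2.95-fold higher, at 10.14 at 24 hpf and 8.58 at 18 hpf. The biliverdin reductase gene blvrb had 9.002 at 24 hpf and 6.19 at 18 hpf, at least 1.85-fold higher by its bound. The erythroid transcription factor gata1a differed by -0.02, with signals of 8.12 at 24 hpf and 8.14 at 18 hpf. These lay just above the lowest signals counted as above background (8.06 and 8.11), so a change could not be read from them.

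White blood cell genes were divided. Of 20 myeloid and progenitor genes on the array 13 were above background, with a median of -0.15. Of these 13, 3 were higher (23.1%, against 6.91% of all genes) and 2 lower (15.4%, against 4.99%). The lysozyme gene lyz had a log2 signal of 11.53 at 24 hpf and 7.58, below background, at 18 hpf, at least 10.7-fold higher. The cytotoxic cell receptor gene nccrp1 was 2.54-fold higher (11.56 at 24 hpf and 10.22 at 18 hpf). On the lower side were the stem cell factor runx1, 2.05-fold lower at 9.07 at 24 hpf and 10.10 at 18 hpf, and the lysosomal protease gene ctsc, at least 6.75-fold lower at 7.95, below background, at 24 hpf and 10.81 at 18 hpf. The myeloid markers lcp1 and mpx differed by 0.14 and 0.23.

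Endothelial genes, the subject of the sorted arrays, had no member past 2-fold in whole embryos. Of 32 on the array 17 were above background. Their differences ran from -0.96 (the transcription factor ets1, below background at 24 hpf) to 0.56 (nr2f2), with a median of 0.09. The arterial and venous signalling genes notch1b (9.13 at 24 hpf and 9.73 at 18 hpf) and ephb4a (9.39 at 24 hpf and 8.92 at 18 hpf) lay on opposite sides of 0.

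In the embryonic surface layer, higher and lower keratins stood side by side. Of 37 epidermal and periderm genes on the array 31 were above background, 10 were higher (32.3%, against 6.91% of all genes) and 3 lower (9.68%, against 4.99%), with a median of 0.43 over the 31 and 0.27 over all 37. Among the 23 members above background on both arrays 5 were higher and 3 lower, with a median of 0.09. The S100 family gene icn had a log2 signal of 15.43 at 24 hpf, where it was saturated, and 11.71 at 18 hpf. At the dimmer scan setting 45, before normalization, its intensity was 20231.5 at 24 hpf and 2821.5 at 18 hpf, 7.17-fold higher, and in the authors' scaled values it was 8.15-fold higher. The claudin gene cldni, a tight junction component, had 11.12 at 24 hpf and 7.91, below background, at 18 hpf, at least 8.06-fold higher. Its 1 probe was above background on every other array, and in Fli1 sorted cells at 18 hpf it stood at 9.36, brighter than in whole embryos. The type II keratin krt4 was 8.13-fold higher, at 13.79 at 24 hpf and 10.76 at 18 hpf, and its 2 other probes differed by 1.95 and 1.53.

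The type I keratin krt91 was 6.61-fold higher on its brightest probe, at 13.09 at 24 hpf and 10.37 at 18 hpf. Its 15 other probes ran from -1.37 to 2.73, 9 of them positive, so that its direction was not shared by all probes. The simple-epithelium keratin krt18a.1 went the other way, at 11.33 at 24 hpf and 14.23 at 18 hpf, 7.48-fold lower. Here 11 of 12 other probes were also negative, over a range of -2.90 to 1.32. For krt5 the brightest probe was saturated on both arrays and gives no fold, and its 4 other probes differed by 0.52, 1.55, 1.70 and 1.38.

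Collagen I and its chaperone were higher. The chain genes col1a1a (10.39 at 24 hpf and 7.67 at 18 hpf) and col1a2 (10.05 at 24 hpf and 7.49 at 18 hpf) were below background at 18 hpf and at least 4.86-fold and 3.84-fold higher, while a second col1a1a probe differed by 0.08. The third chain gene, col1a1b, was 2.56-fold higher, at 9.51 at 24 hpf and 8.15 at 18 hpf, with 0.42 on its other probe. The collagen chaperone gene serpinh1b had a log2 signal of 10.38 at 24 hpf and 6.47, below background, at 18 hpf, at least 4.82-fold higher. In Fli1 sorted cells at 18 hpf its probe stood at 9.19, brighter than in whole embryos of that stage. The matricellular protein gene sparc was 2.73-fold higher at 10.84 at 24 hpf and 9.39 at 18 hpf, and 4 of its 5 other probes were positive. Of the 27 matrix and integrin genes on the array, 14 were above background, 4 of them higher (28.6%, against 6.91% of all genes). These 4 were the 3 collagen chains and sparc, 3 of which are counted in the epidermal list as well.

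**Figure D3:**
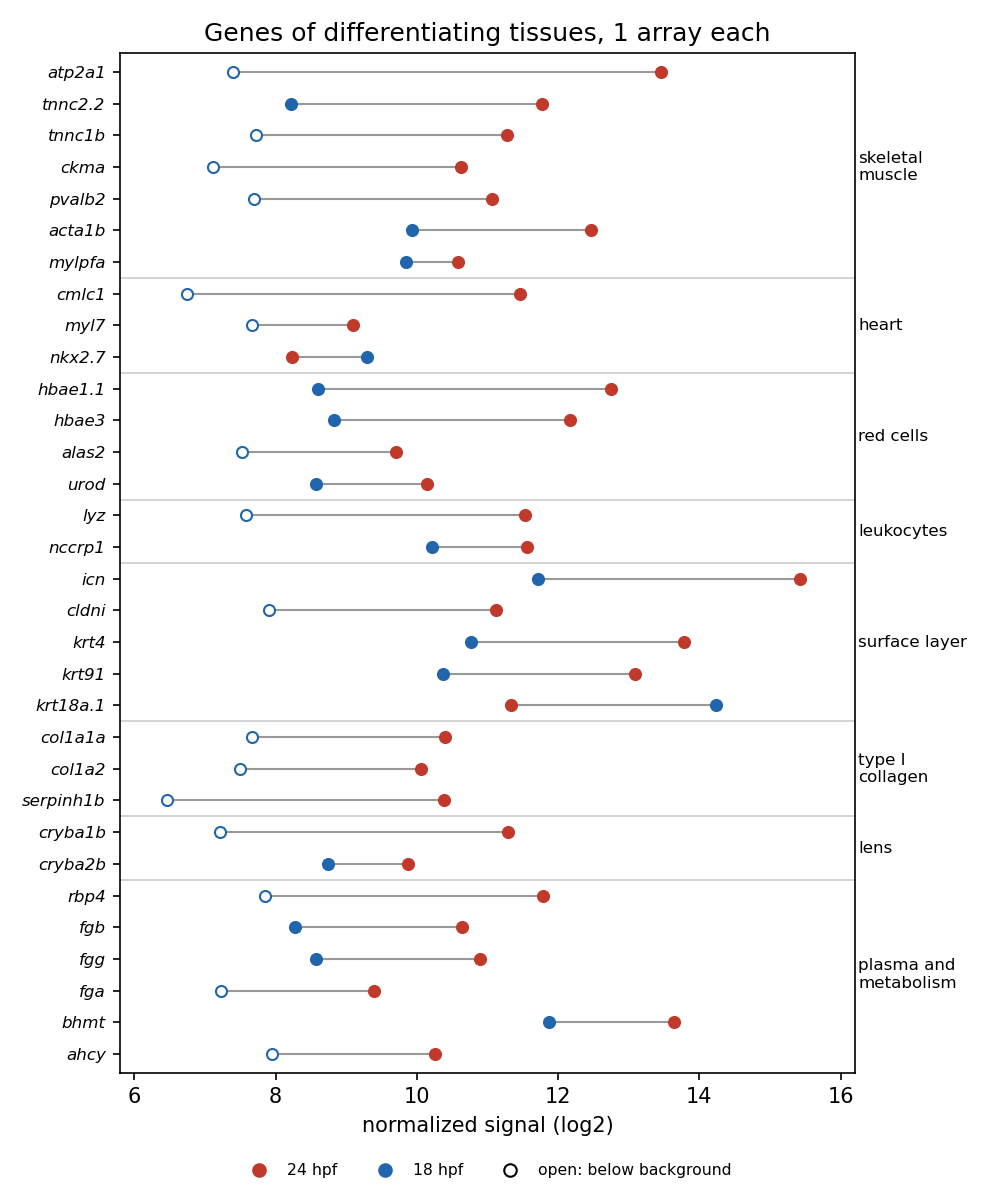
Normalized log2 signal of named genes of differentiating tissues on the 24 hpf array (red) and the 18 hpf array (blue), 1 array each, with open circles for signals below background. The genes were picked for drawing and most had been counted as higher, so their shared direction follows from that choice. Those brighter at 24 hpf run from mylpfa (10.58 at 24 hpf and 9.85 at 18 hpf) to atp2a1 (13.45 at 24 hpf and 7.40 at 18 hpf). The lower genes mybpc2b, runx1 and ctsc are not drawn. nkx2.7 and krt18a.1 are dimmer at 24 hpf.

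Lens and eye genes had few members above background. Of 31 on the array 24 were below background on both arrays and 7 were above on 1 or both. Of these 7, 4 were higher (57.1%, against 6.91% of all genes). Their median of 1.07 rests on the genes that are bright at 24 hpf: over all 31 it was -0.07. The crystallin gene cryba1b, a structural protein of lens fibres, had a log2 signal of 11.29 at 24 hpf and 7.21, below background, at 18 hpf, at least 9.08-fold higher. The related gene cryba2b was 2.2-fold higher with both arrays above background (9.88 at 24 hpf and 8.74 at 18 hpf). The retinal field factor rx3 had 8.88 at 24 hpf and 7.08 at 18 hpf, at least 1.71-fold higher by its bound.

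Of 45 neuronal genes on the array 19 were above background, 2 higher (10.5%, against 6.91% of all genes) and none lower (median -0.19). Of 70 neural progenitor and patterning genes 30 were above background, 3 of them higher (10%). In that list 1 was lower (3.33%, against 4.99% of all genes), and the median was -0.13. The proneural factor neurod4 had 9.52 at 24 hpf and 7.63, below background, at 18 hpf, at least 2.66-fold higher. The synuclein gene sncb was 2.05-fold higher, at 9.58 at 24 hpf and 8.54 at 18 hpf. The radial glial lipid carrier fabp7a had 9.09 at 24 hpf and 6.51 at 18 hpf, at least 1.97-fold higher by its bound, and the glial glutamate transporter slc1a3a was 2.39-fold higher, at 10.25 at 24 hpf and 8.99 at 18 hpf. The homeobox gene irx7 was lower, at 7.84, below background, at 24 hpf and 9.33 at 18 hpf, at least 2.41-fold.

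None of 25 measured neural crest and arch genes was 2-fold different, with a median of -0.14 (42 genes on the array). In pigment cells the melanin synthesis gene dct had 9.01 at 24 hpf and 7.43, below background, at 18 hpf, at least 1.86-fold higher by its bound, while the pigment cell regulator mitfa differed by -0.03. Of 17 measured hox genes only hoxa1a was past 2-fold (5.88% lower, against 4.99% of all genes). It had 9.34 at 24 hpf and 10.45 at 18 hpf, 2.17-fold lower, with -0.39 on its other probe.

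Genes of plasma proteins, which the yolk syncytial layer and later the liver make, held several of the higher genes. Of 54 yolk, liver and gut genes on the array 31 were above background, 8 higher (25.8%, against 6.91% of all genes) and 1 lower (3.23%, against 4.99%). The median was 0.21 over the 31 and 0.08 over 52 whatever their signal, against -0.09 and -0.06 over all genes. The retinol carrier gene rbp4 had a log2 signal of 11.79 at 24 hpf and 7.84, below background, at 18 hpf, at least 12.8-fold higher. All 3 fibrinogen chain genes were higher: fgb at 10.63 at 24 hpf and 8.28 at 18 hpf (5.12-fold), fgg at 10.90 at 24 hpf and 8.56 at 18 hpf (5.05-fold), and fga at 9.40 at 24 hpf and 7.22 at 18 hpf (at least 2.44-fold, its other probe 1.17). The apolipoprotein gene apoa1a was bright on both arrays, at 12.44 at 24 hpf and 11.56 at 18 hpf, a 1.85-fold difference under the criterion.

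Some enzymes of the methionine cycle, which turn homocysteine and S-adenosyl compounds over, were higher. Of 22 one-carbon genes on the array 12 were above background, and 3 of these were higher (25%, against 6.91% of all genes). The 3 were the methyltransferase genes bhmt (13.64 at 24 hpf and 11.88 at 18 hpf, 3.39-fold, other probes 1.24 and 2.37) and gnmt (9.79 at 24 hpf and 8.06 at 18 hpf, at least 3.2-fold) and the hydrolase gene ahcy (10.26 at 24 hpf and 7.95 at 18 hpf, at least 4.44-fold, other probe 2.12). None of the 12 was lower, against 4.99% of all genes. The median was 0.71 over the 12 genes and 0.05 over all 22. In sugar metabolism pgm1, which interconverts glucose phosphates, was 4.76-fold higher at 11.55 at 24 hpf and 9.30 at 18 hpf, and its 3 other probes differed by 2.78, 2.39 and 1.03. The aldolase gene aldoab was 4.15-fold higher (10.22 at 24 hpf and 8.17 at 18 hpf, other probe 0.90), and the lactate dehydrogenase gene ldhba 3.76-fold higher (11.07 at 24 hpf and 9.16 at 18 hpf). The pyruvate kinase gene pklr was 2.99-fold lower at 9.12 at 24 hpf and 10.70 at 18 hpf, with 0.36 on its other probe. In all, 6 of 30 measured glycolysis genes were higher (20%, against 6.91% of all genes) and 2 lower (6.67%, against 4.99%), with a median of 0.13.

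The list with the most lower genes was ribosome biogenesis, the nucleolar machinery that processes ribosomal RNA and assembles the subunits. Of 50 such genes on the array 40 were above background, 14 of them (35%) were lower at 24 hpf and 1 was higher, against 4.99% and 6.91% of all genes. The median was -0.61 over the 40 and -0.33 over all 50, and 31 of the 40 differences were negative. The nucleolar protein gene surf6 had a log2 signal of 9.52 at 24 hpf and 11.19 at 18 hpf, 3.16-fold lower. The helicase gene ddx27 had 11.12 at 24 hpf and 12.76 at 18 hpf, 3.12-fold lower, with -0.09 on its other probe. The box C/D snoRNP core gene nop58 was at least 2.78-fold lower, at 7.96, below background, at 24 hpf and 9.54 at 18 hpf.

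The pseudouridine synthase gene dkc1 was 2.86-fold lower at 8.83 at 24 hpf and 10.34 at 18 hpf, and its 3 other probes were all negative (-0.06, -0.63 and -0.80). The nucleolar gene lyar was 2.94-fold lower at 8.24 at 24 hpf and 9.80 at 18 hpf. The other lower ones were noc4l, nop2, sdad1, rcl1, imp4, wdr12, rrs1, mybbp1a and pno1, with differences between -1.23 and -1.05. The 5S particle assembly factor rpf2 was the exception, 3.23-fold higher at 9.99 at 24 hpf and 8.30 at 18 hpf, with -0.05 on its other probe. Outside the list mak16, another assembly factor, was 3.36-fold lower at 8.86 at 24 hpf and 10.61 at 18 hpf.

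**Figure D4:**
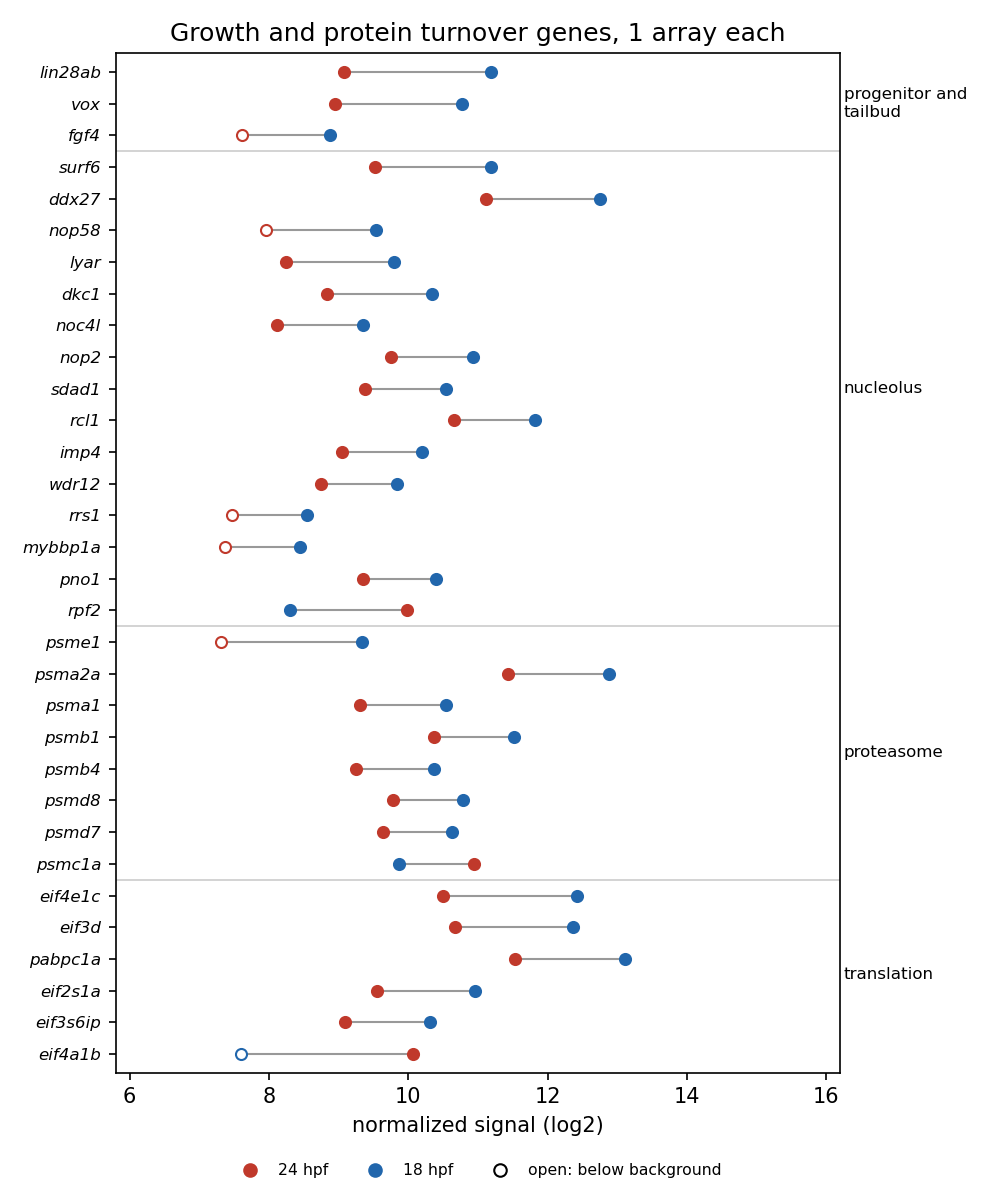
Normalized log2 signal of progenitor, nucleolar, proteasome and translation genes on the 24 hpf array (red) and the 18 hpf array (blue), 1 array each, with open circles for signals below background. All nucleolar and proteasome genes past 2-fold are drawn. Most are dimmer at 24 hpf, such as surf6 (9.52 at 24 hpf and 11.19 at 18 hpf), and rpf2, psmc1a and eif4a1b are brighter.

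Ribosomal proteins, translation factors and the proteasome leaned the same way by smaller amounts. Of 73 ribosomal protein genes on the array 72 were above background on both arrays, 10 were lower (13.9%, against 4.99% of all genes) and 1 higher, and 49 of the 72 differences were negative (median -0.41). The large subunit gene rpl26 was 3.11-fold lower at 12.02 at 24 hpf and 13.65 at 18 hpf, with -1.12 on its other probe, and rpl13 was 2.61-fold lower at 11.52 at 24 hpf and 12.91 at 18 hpf. The small subunit gene rps25 had 13.38 at 24 hpf and 15.19, saturated, at 18 hpf, and rps2 had 15.65, saturated, at 24 hpf and 13.70 at 18 hpf. Each of these 2 genes was saturated on 1 array, and each had the opposite sign at the brighter scan setting 65 (0.53 for rps25 and -0.24 for rps2). At the dimmer scan setting 45, before normalization, rps25 had intensities of 7124 at 24 hpf and 27571 at 18 hpf, 3.87-fold lower. At that setting rps2 had 28039.5 at 24 hpf and 12482.5 at 18 hpf, 2.25-fold higher. The other rps25 probe differed by -0.57, and the 5 other rps2 probes by 0.29 to 1.55.

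Of 64 translation factor genes on the array 47 were above background, 6 lower (12.8%, against 4.99% of all genes) and 2 higher (4.26%, against 6.91%). Their median was -0.29. The cap-binding protein gene eif4e1c was 3.8-fold lower, at 10.50 at 24 hpf and 12.42 at 18 hpf, and its other probe differed by -1.53. The initiation factor subunit genes eif2s1a (9.55 at 24 hpf and 10.96 at 18 hpf, other probe -0.41) and eif3s6ip (9.10 at 24 hpf and 10.31 at 18 hpf) were 2.65-fold and 2.32-fold lower. The poly(A)-binding protein gene pabpc1a was 3-fold lower on its brightest probe (11.53 at 24 hpf and 13.12 at 18 hpf), but 7 of its 12 other probes were positive. The helicase eif4a1b was at least 3.88-fold higher, at 10.07 at 24 hpf and 7.60, below background, at 18 hpf, with 0.65 and 0.13 on its other probes.

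Of 42 proteasome genes on the array 39 were above background, 7 lower (17.9%, against 4.99% of all genes) and 1 higher (2.56%, against 6.91%). The median was -0.41 over the 39 and -0.36 over all 42. The core particle gene psma2a was 2.74-fold lower, at 11.43 at 24 hpf and 12.89 at 18 hpf, and its other probe differed by -1.73. The core genes psma1 (9.30 at 24 hpf and 10.54 at 18 hpf, other probe -0.21), psmb1 (10.36 at 24 hpf and 11.52 at 18 hpf, other probe -0.57) and psmb4 (9.25 at 24 hpf and 10.38 at 18 hpf) were 2.35-fold, 2.23-fold and 2.19-fold lower. The activator gene psme1 was at least 2.43-fold lower, at 7.32, below background, at 24 hpf and 9.34 at 18 hpf. The base ATPase gene psmc1a was 2.1-fold higher at 10.94 at 24 hpf and 9.87 at 18 hpf, with -0.26 on its other probe.

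Progenitor genes of the tailbud and early embryo were lower in part. Of 50 segmentation and tailbud genes on the array 21 were above background, 3 lower (14.3%, against 4.99% of all genes) and none higher (against 6.91%). Of the 21 differences 19 were negative (median -0.23). The RNA-binding regulator lin28ab, known from stem cells, had a log2 signal of 9.07 at 24 hpf and 11.18 at 18 hpf, 4.32-fold lower. The ventralizing homeobox gene vox had 8.95 at 24 hpf and 10.77 at 18 hpf, 3.53-fold lower. The growth factor gene fgf4 had 7.61, below background, at 24 hpf and 8.88 at 18 hpf, at least 1.76-fold lower by its bound. The 3 were each measured by 1 probe above background.

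Among 44 measured genes of the Notch, Wnt, Fgf, Hedgehog, Bmp and retinoic acid pathways 2 were lower (4.55%, against 4.99% of all genes) and none higher (median -0.16). The Wnt pathway scaffold gene axin1 was 2.65-fold lower at 8.26 at 24 hpf and 9.66 at 18 hpf, and the secreted Wnt antagonist gene sfrp1a was at least 2-fold lower at 8.03, below background, at 24 hpf and 9.06 at 18 hpf.

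Cell cycle genes did not share this direction. Of 67 DNA replication and cell cycle genes on the array 51 were above background and none was 2-fold higher or lower, with a median of 0.20 and 32 positive differences. The replication clamp gene pcna came closest, at 12.13 at 24 hpf and 11.14 at 18 hpf, a 1.99-fold difference, with 0.94 on its other probe. Of 44 measured respiratory chain genes 2 were higher (4.55%, against 6.91% of all genes) and 2 lower (4.55%, against 4.99%). Of 50 measured splicing factors 1 was higher (2%) and 2 were lower (4%). Their medians of -0.11 and -0.08 were close to the median of all genes.

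Some of the largest differences rested on a spot that was bright on 1 array alone. The genes gabpa, uox and naalad2 had log2 signals of 7.13, 7.80 and 6.59 at 24 hpf and of 11.35, 11.78 and 10.62 at 18 hpf, and they lay between 6.25 and 7.47 on all 4 sorted arrays. At the brighter scan setting 65 the same gabpa probe differed by 0.004, while uox and naalad2 differed by -4.58 and -4.78 there. A second naalad2 probe was 0.52 higher at 24 hpf. Signals of this kind, above background on 1 of the 6 arrays, made up 68 of the 341 higher and 48 of the 246 lower genes and unnamed probes. On the higher side they included cryba1b, rbp4, ckma, fga and col1a1a, and on the lower side also ctsc, psme1 and fgf4.

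The same interval in Fli1 sorted cells, which hold endothelium, blood cells and part of the neural crest, was measured on 2 other arrays and offered a comparison that shares no array with the whole embryos. Of the 4933 genes and unnamed probes 249 were 2-fold higher in Fli1 cells at 24 than at 18 hpf (5.05%) and 166 were lower (3.37%). Of the 341 higher in whole embryos, 35 were also higher in Fli1 cells, 10.3% of the whole-embryo set and 14.1% of the Fli1 set, and 15 were lower there. Of the 246 lower in whole embryos, 13 were also lower in Fli1 cells, 5.28% and 7.83% of these sets, and 11 were higher there. Over the 2189 genes above background on all 4 arrays the Spearman correlation of the differences was -0.05, a description across genes, which are not independent replicates.

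**Figure D5:**
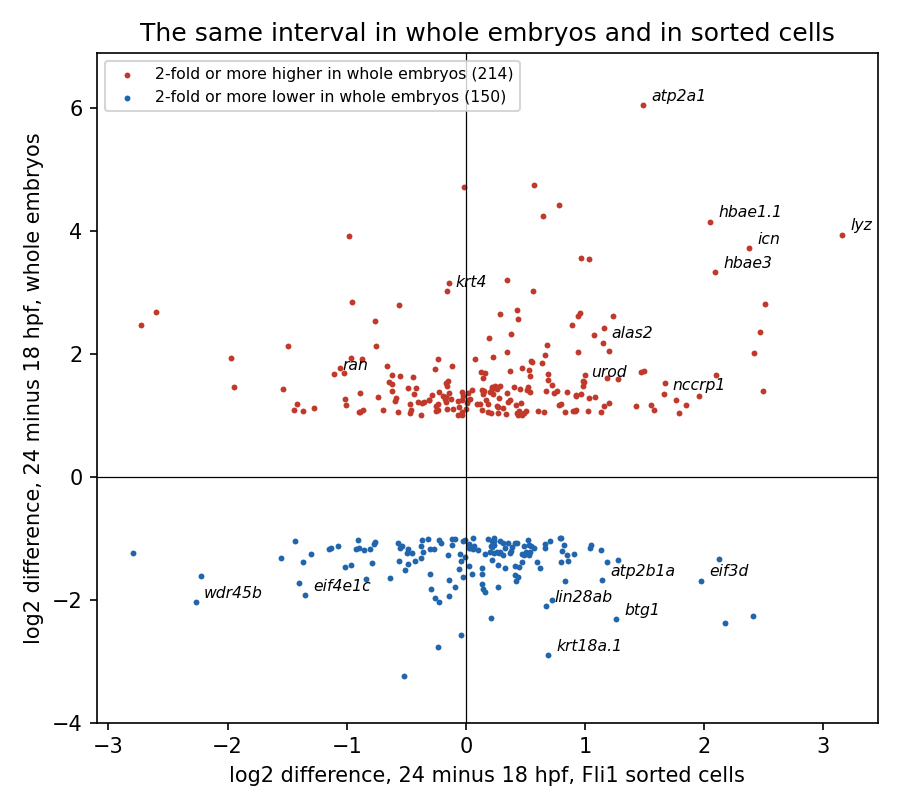
Log2 difference (24 minus 18 hpf) in whole embryos (vertical axis) and in Fli1 sorted cells (horizontal axis), 1 array per stage and fraction, for genes 2-fold different in whole embryos and above background in Fli1 cells at either stage. Red points were higher (214) and blue points lower (150) in whole embryos. hbae1.1, hbae3, lyz and icn lie at the upper right, and eif3d and btg1 at the lower right.

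Several blood genes named above were higher in both. In Fli1 cells the differences were 2.05 for hbae1.1, 2.09 for hbae3, 3.16 for lyz, 2.51 for blvrb (below background at 18 hpf, at least 2.87-fold higher), 1.15 for alas2 and 1.66 for nccrp1, and the surface gene icn differed by 2.38. Of the 39 measured muscle genes 24 were above background in Fli1 cells at either stage. Of the 39, 5 were higher there and 1 was lower, against 5.05% and 3.37% of all 4933. Among them atp2a1 differed by 1.49, above background at both stages. The gene mylpfa differed by 2.24, below background at 18 hpf and at least 2.01-fold higher. By contrast acta1b, above background at both stages, differed by -0.76. The genes pvalb2, tnnt3b and ckma were below background in Fli1 cells at both stages. Of the 40 measured ribosome biogenesis genes 30 were above background in Fli1 cells at either stage. In these cells 8 of the 40 were lower and none higher, against 3.37% and 5.05% of all 4933. Their Fli1 median was -0.42 over the 40, dim members included, against 0.045 over all genes. The ribosomal protein list had a median of 0.34 there.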

How the data were processed

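Single-colour oligonucleotide arrays of whole embryos at 24 and 18 hpf were compared, 1 array each, with the arrays of Fli1 sorted cells of the same stages beside them. Per the file headers, the scanner files give a spot intensity and a local background intensity for each of 3 scan settings, named 45, 55 and 65. Another intensity, background-subtracted and merged from the settings by the authors, was deposited with its ratio to 1 number per array, on a linear scale. The deposited value table repeats this ratio within 5e-08, with medians of 0.816 at 24 hpf and 0.801 at 18 hpf, which settles its linear scale, and its genes were not centred. Per the file headers, each spot carries a flag score, whose codes are not explained in the sources used here, and 68 probes flagged on any array were left out. The scanner and the image software are not given in the sources used here.

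Setting 55 was used, with normexp background correction at an offset of 50 followed by quantile normalization over all 6 arrays (limma 3.58.1, R 4.3.3). Arrays were then compared as log2 differences (24 minus 18 hpf) with pandas 2.3.3 and numpy 2.4.6. Saturated spots, at a ceiling of 65535, were kept. RefSeq gene tables named 8355 of 14067 zebrafish probes (7702 by accession, 24 by older accession, 415 by clone name, 6 by gene name, 208 by a shared description), which left 5712 unnamed and gave 5014 symbols, 1831 with several probes. The calling script was checked on simulated data. Array number limits the precision.

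The naming rule picked 225 genes. They were the 20 largest measured differences and the 10 largest bounds in each direction, among genes past 2-fold on 3 scalings. Added to them were up to 6 members of each list, members past 2-fold first, and defining markers. Not all of the 225 are described above. Among those passed over were nme2a (5.75-fold lower), wdr45b (4.11-fold lower), tram1 (4.02-fold lower) and ier5l (6.14-fold higher). Where a list's whole set past 2-fold is given, its other members are named too. All members and all 35 lists were chosen with earlier results of these data known, and 8 further lists and the genes singled out for a bright spot on 1 array were chosen after their values were seen. Lists overlap. Alternatives covered scaling, background, scan setting, probe choice, filters and threshold.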

Additional observations from a re-analysis of the deposited data

Results flagged for a closer look

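For 5 of the 225 genes picked by the naming rule the interval went opposite ways in whole embryos and in Fli1 sorted cells. Each log2 difference (24 minus 18 hpf) was past 2-fold before any bound is taken. Among all genes and unnamed probes, 15 of the 341 higher in whole embryos were 2-fold lower in Fli1 cells, against 3.37% of all 4933. Of the 246 lower ones 11 were 2-fold higher there, against 5.05%. Both shares lay near those of all genes and unnamed probes. With 1 array per stage and fraction, the difference between the fractions was not tested. The initiation factor subunit gene eif3d differed by -1.69 in whole embryos and 1.97 in Fli1 cells, where it was below background at 18 hpf and at least 2.63-fold higher, with -1.28, 0.13, 0.13 and 0.57 on its other whole-embryo probes. The antiproliferative gene btg1 differed by -2.32 in whole embryos, where it was below background at 24 hpf, and 1.26 in Fli1 cells, where it was below background at 18 hpf and its bound gives no fold. The plasma membrane calcium pump gene atp2b1a differed by -1.68 in whole embryos, with -1.78 on its other probe, and 1.14 in Fli1 cells. The nuclear transport GTPase gene ran differed by 1.68 in whole embryos, with 0.31 on its other probe, and -1.11 in Fli1 cells. The ribosome assembly gene rpf2 differed by 1.69 in whole embryos and -1.03 in Fli1 cells.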

How the results depend on the processing

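Counts of higher and lower genes depended on the scaling and the filter more than directions did. In the authors' scaled values 481 were higher and 475 lower, and under 75th percentile scaling 448 and 379. With scan setting 45 the counts were 230 and 156, with genes above background on both arrays 159 and 155, at a 3-fold threshold 131 and 63, and with a bound of at least 2-fold, added after seeing the data, 227 and 182. In the other 8 settings tried there were 295 to 508 higher and 211 to 357 lower. Genes past 2-fold the same way in Fli1 cells, 48 as reported, numbered 74 in the authors' scaled values, 30 at scan setting 45 and 28 with both arrays above background. Medians of the muscle, erythroid, ribosome biogenesis, ribosomal protein and proteasome lists kept their sign under all 12 settings, at 0.60 to 1.39, 0.27 to 0.95, -0.87 to -0.33, -0.68 to -0.08 and -0.60 to -0.29. The skeletal muscle median was 1.39 under cyclic loess and 0.6 without the filter on dim probes. Eye and lens gave -0.28 with both arrays above background, -0.07 without the filter, 0.02 at setting 45 and 0.63 at 65, and its positive median rested on members below background at 18 hpf. Erythroid gave 0.27 with both arrays above background and 0.28 without the filter, matrix and integrins -0.2 and -0.02. One-carbon gave 0.05 without the filter. Globins gave 1.9 with both arrays above background and with the 99th percentile limit, and pigment cells 0.43 with that limit. Hatching gland (4 genes, 0.25) gave -0.23 under 75th percentile scaling, -0.24 in the authors' values, -0.35 with the whole-embryo arrays normalized alone and -0.12 without background correction. Single genes reversed at scan setting 65, on the same probe, for cux1b (-1.39), or30bt4 (-1.5), rps2 (-0.24) and rps25 (0.53), and for pabpc1a (0.04) with the mean over probes. At scan setting 45 cux1b (1.33), or30bt4 (2.33), rps2 (1.81) and rps25 (-1.43) kept the sign they had at setting 55. At setting 65 gabpa was at 0.004. The causes were not tested. Dim genes have only bounds and saturated ones no ordering. No paired analysis was possible because each stage has 1 array.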

Other observations

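Several gene families outside the groups above, listed after their values had been seen, are given here as values only. All 7 subunit genes of the RNA exosome, which trims and degrades RNA, were negative, with a median of -0.68 against -0.09 over all genes. The catalytic subunit gene exosc10 had a log2 signal of 8.37 at 24 hpf and 10.10 at 18 hpf, 3.31-fold lower, and exosc2 had 11.17 at 24 hpf and 11.85 at 18 hpf, under 2-fold. All 6 zona pellucida genes, whose products form the egg coat, were negative too (median -0.67), and zp2.6 was 2.41-fold lower at 9.15 at 24 hpf and 10.42 at 18 hpf, with -1.73 on its other probe. Of 13 measured tubulin genes, tuba1b was 2.57-fold higher at 11.32 at 24 hpf and 9.96 at 18 hpf, while tuba8l2 had 12.42 at 24 hpf and 15.19, saturated, at 18 hpf.

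Ionocyte genes, among them ion pump genes, which keep the ion balance of the skin, included 3 higher ones of 9 measured (33.3%, against 6.91% of all genes). All 3 were below background at 18 hpf. The 1 lower gene (11.1%, against 4.99%) was atp2b1a (9.12 at 24 hpf and 10.80 at 18 hpf, 3.2-fold). The sodium pump subunit genes atp1a1a.1 (9.09 at 24 hpf and 7.80 at 18 hpf), atp1a1a.2 (8.89 at 24 hpf and 7.39 at 18 hpf) and atp1b1b (8.42 at 24 hpf and 6.75 at 18 hpf) were at least 1.97-fold, 1.71-fold and 1.24-fold higher by their bounds. Among chaperones the mitochondrial gene hspd1 was 3.14-fold higher, at 10.21 at 24 hpf and 8.56 at 18 hpf, with 1.36 and 1.05 on its other probes, and hsp90aa1.1, which muscle uses for myosin folding, was 2.53-fold higher at 10.81 at 24 hpf and 9.48 at 18 hpf. The secretory pathway factor xbp1, active in the hatching gland, was 2.34-fold higher, at 10.57 at 24 hpf and 9.34 at 18 hpf, with 1.22 on its other probe.

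The gene named or30bt4 from its accession, an odorant receptor symbol, had 12.15 at 24 hpf and 8.62 at 18 hpf, 11.5-fold higher, and reversed at the brighter scan setting. An unnamed probe was saturated at 24 hpf (14.92) and below background at 18 hpf (7.52), so its difference has no defined size. It has no gene name in the tables used.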
